A study of Homo sapiens with 4 samples.

Results

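Chromatin regions of 100 kb in which most open sites were less accessible together were examined in LM2 cells that carry a CECR2 deletion. A window was a fixed 100 kb segment of chromosomes 1 to 22 with at least 8 counted peaks, a counted peak being one with 20 or more cut-site counts summed over both control libraries. It was chosen when 60% or more of its counted peaks had a ratio of mean sg1 CPM to mean control CPM under 0.67, where CPM is the count scaled to a common total over the peaks kept. The choice gave 203 windows, 2.57% of the 7907 windows with 8 or more counted peaks. They hold 2312 of the 190348 deposited peaks, of which 2042 were counted and 270 were not. Because the ratio chose the windows, every sg1 against control value below is a description and carries no test.

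The assay was ATAC-seq, in which the Tn5 transposase cuts open DNA and tags the ends, with 50000 cells per library. LM2 is a human breast cancer line derived from MDA-MB-231 with a raised potential for lung metastasis, grown here with puromycin in both groups. The sg1 cells carried CECR2 deletion 1, made with guide sg1 (2 replicates), and the controls carried a non-targeting guide (2 replicates). Only 1 targeting guide is represented, no label says whether the sg1 cells were a pool or a clone, and none says that replicates were separate cultures. Calls therefore rest on library-to-library spread that could be purely technical. The sg1 libraries kept 42725499 and 38214374 counts, and the control libraries 20540791 and 15219912. A lower count at a site can come from fewer cells with the site open or from less cutting per cell, and these cannot be told apart.

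CECR2 is a bromodomain protein that partners ISWI enzymes, which slide and space nucleosomes. Open sites away from gene starts are mostly enhancers, and enhancers of one locus often lie in groups that are opened together by shared transcription factors. NF-kB, a factor family activated by inflammatory signals, acts through such groups at cytokine and chemokine genes, many of which sit side by side as gene clusters.

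The windows that overlap protein-coding genes include inflammatory loci, so 7 promoters of genes that start in them are shown, each as the 250 bases before the gene's start from RefSeq (GRCh38.p14). IL1B, CXCL1, MMP10, SERPINA6 and SIGLEC15 are shown because the peak over the promoter had a ratio under 0.67. CXCL8 and NFKB1 are shown because the promoter peak did not, while most counted peaks of their windows did. Capitals mark matches to 5 motifs searched on both strands: the NF-kB consensus, AP-1 (TGANTCA), TEAD (GGAATG), CRE (TGACGTCA) and ETS (CCGGAAGT), none of which contains another.
IL1B, chr2:112836780-112837029, minus strand: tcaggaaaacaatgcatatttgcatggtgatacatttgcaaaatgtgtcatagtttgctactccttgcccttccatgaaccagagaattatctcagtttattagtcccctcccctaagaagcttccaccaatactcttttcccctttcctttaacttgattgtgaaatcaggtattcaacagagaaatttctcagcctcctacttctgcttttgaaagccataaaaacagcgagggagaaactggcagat
CXCL8, chr4:73740319-73740568, plus strand: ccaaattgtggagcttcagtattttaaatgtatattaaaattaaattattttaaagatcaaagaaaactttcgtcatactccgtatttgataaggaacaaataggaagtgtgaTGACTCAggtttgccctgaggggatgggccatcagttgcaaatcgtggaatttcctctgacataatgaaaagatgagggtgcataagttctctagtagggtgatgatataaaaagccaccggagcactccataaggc
CXCL1, chr4:73869143-73869392, plus strand: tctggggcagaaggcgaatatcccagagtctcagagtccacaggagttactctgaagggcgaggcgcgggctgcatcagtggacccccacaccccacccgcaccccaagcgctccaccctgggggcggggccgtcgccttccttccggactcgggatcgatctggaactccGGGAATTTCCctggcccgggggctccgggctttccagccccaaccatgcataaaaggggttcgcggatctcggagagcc
MMP10, chr11:102780629-102780878, minus strand: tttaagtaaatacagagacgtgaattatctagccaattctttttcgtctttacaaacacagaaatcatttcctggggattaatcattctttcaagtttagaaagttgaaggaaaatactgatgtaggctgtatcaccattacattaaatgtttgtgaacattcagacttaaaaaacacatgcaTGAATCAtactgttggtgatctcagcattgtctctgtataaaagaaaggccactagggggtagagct
SERPINA6, chr14:94323337-94323586, minus strand: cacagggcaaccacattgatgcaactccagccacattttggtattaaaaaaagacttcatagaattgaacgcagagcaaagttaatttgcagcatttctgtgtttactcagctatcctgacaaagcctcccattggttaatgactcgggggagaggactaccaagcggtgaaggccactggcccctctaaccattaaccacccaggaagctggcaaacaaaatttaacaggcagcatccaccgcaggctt
SIGLEC15, chr18:45825425-45825674, plus strand: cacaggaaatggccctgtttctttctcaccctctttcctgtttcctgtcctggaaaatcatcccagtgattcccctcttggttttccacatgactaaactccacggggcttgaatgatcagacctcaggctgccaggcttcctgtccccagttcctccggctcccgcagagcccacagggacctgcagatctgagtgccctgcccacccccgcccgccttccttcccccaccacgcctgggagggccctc
NFKB1, chr4:102501109-102501358, plus strand: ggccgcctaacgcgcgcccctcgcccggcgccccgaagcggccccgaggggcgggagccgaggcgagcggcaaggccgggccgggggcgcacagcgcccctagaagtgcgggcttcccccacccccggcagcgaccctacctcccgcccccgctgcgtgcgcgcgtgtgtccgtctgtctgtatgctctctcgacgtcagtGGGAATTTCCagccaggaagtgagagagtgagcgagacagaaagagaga

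The CXCL1 and NFKB1 promoters each hold an NF-kB match, and the CXCL8 and MMP10 promoters each hold an AP-1 match. No match lies in the IL1B, SERPINA6 and SIGLEC15 stretches, which says only that these letters are not in this window. The same holds for the missing NF-kB match in CXCL8, where the unmarked letters tggaatttcc differ from the consensus at 1 base. The chosen windows hold 119 protein-coding promoters, which belong to 86 genes. Of these, 12.6% hold the NF-kB consensus, against 8.67% of 12003 protein-coding promoters in the other windows with 8 or more counted peaks. Over all 22198 protein-coding promoters the share was 7.83%. AP-1 was found in 8.403%, against 5.34% in those other windows and 5.36% of all protein-coding promoters. TEAD was found in 13.45%, against 10.35% and 10.47%, ETS in 3.36%, against 4.92% and 4.40%, and CRE in 1 promoter. The chosen promoters are few, several belong to one gene, and no test was made of these shares. Some stretches overlap and share a match, as at CCDC122 and LACC1. Among the promoters with the NF-kB consensus, only those of CXCL1 and LAMB3 had a promoter peak under 0.67.

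Across the genome, windows with many lower peaks formed the tail of a continuous range. The median window had 16.7% of its counted peaks under 0.67, and 1378 windows (17.4%) had none. Of all 151733 counted peaks, 31239 (20.6%) were under 0.67, and the chosen windows hold 1419 of them among their 2042 counted peaks (69.5%), a share set by the rule. All counted peaks lay under 0.67 in 7 windows. The rule run in the other direction, with 60% or more of the counted peaks above 1.49, gave 34 windows, while 11.7% of all counted peaks were above 1.49. Its count minimum was again on the control libraries, so peaks low in the control and higher in sg1 were left out. The numbers of windows in both directions are therefore not like for like. With the peaks at the start of chromosome 1 left in the library totals, the log2 ratio of all counted peaks moved by -0.14 at the median and the rule gave 391 windows, all 203 among them.

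**Figure D1:**
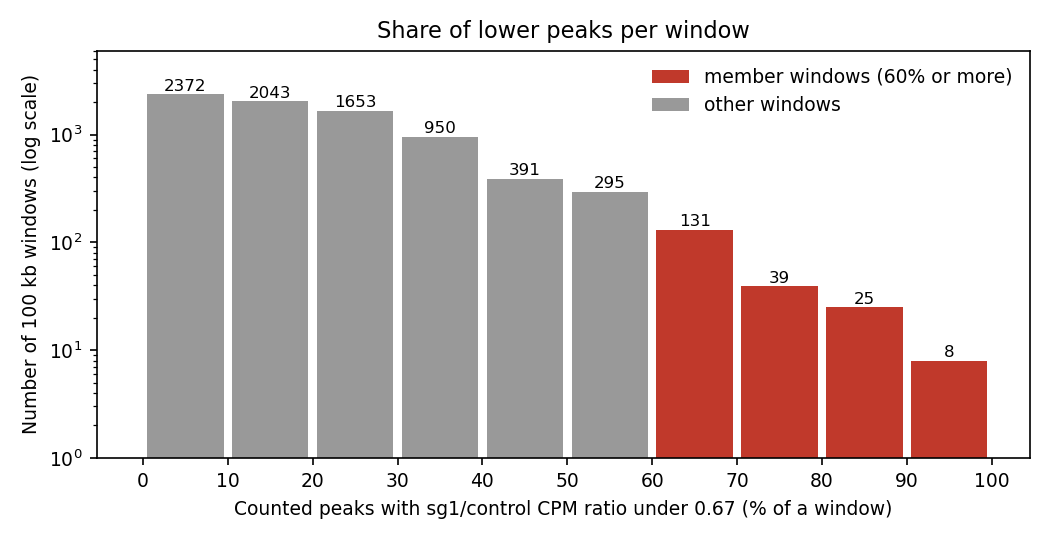
Number of 100 kb windows (log scale) by the percentage of their counted peaks with an sg1/control CPM ratio under 0.67. The 203 chosen windows (red) fall in the last 4 bars, with 131 windows from 60% to under 70% and 8 windows at 90% or more.

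At the threshold, 28 windows lay at exactly 60%. Those of them with the most counted peaks, ties taken by position, hold LGR4 and LIN7C on chromosome 11 (12 of 20 counted peaks, 60%), no gene on chromosome 1 from 22200000 (6 of 10) and KCNN3 on chromosome 1 (6 of 10). The nearest outside hold CXCL3 and CXCL2 on chromosome 4 (10 of 17 counted peaks, 58.8%), CYP4Z1, CYP4A22 and PDZK1IP1 on chromosome 1 (7 of 12) and no gene on chromosome 12 from 27100000 (7 of 12). The window with CXCL3 and CXCL2, a pair of neutrophil-attracting chemokine genes, had a summed sg1 CPM of 0.491 times the control, while 36 of the 203 chosen windows were under 0.5.

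Summed over the chosen peaks, replicates were close, while single peaks varied. Over the 2042 counted peaks, the summed CPM was 6933 and 6892 in the sg1 libraries, against 11318 and 11347 in the control libraries. The median peak ratio was 0.540, with quartiles of 0.359 and 0.757 and extremes of 0.0191 and 3.18. Between replicates, the median of replicate 2 over replicate 1 was 0.988 in sg1 and 1.005 in the control, and 10.2% of the peaks in sg1 and 10.6% in the control had that ratio under 0.67. Over all counted peaks these shares were 5.86% in sg1 and 10.45% in the control, so single sg1 values varied more here than elsewhere, at lower sg1 levels (a median of 1.305 CPM, against 2.46 CPM over all counted peaks).

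Both sg1 libraries lay under both control libraries at 1553 of the 2042 counted peaks (76.05%; 33.6% of all counted peaks), and above both at 126 (6.17%; 30.7% of all). Summed over a window, both sg1 libraries lay under both controls in 198 of the 203 windows, against 43.5% of all 7907. Of the other 5, those with CUL1 and EZH2, with YAE1 and RALA, and with RHOH had both sg1 sums above both control sums, and those with MTUS1 and FGL1 and with NUP107 and SLC35E3 had groups that overlapped. In a fit across all peaks with edgeR's quasi-likelihood test at an FDR of 0.05, 1225 of the 2227 tested peaks in the windows were called lower (55.0%; 16.8% of all tested peaks) and 53 higher (2.38%; 11.5% of all). These calls come from the contrast that chose the windows, so nothing is read from the difference in shares. Over all 190239 peaks, DESeq2 called 9.37% lower and 4.35% higher, and among the peaks in the windows it called 833 lower and 16 higher. The higher count was 22 without sg1 replicate 1 and 24 without sg1 replicate 2.

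A choice made on some libraries could be measured in the others. When the windows were chosen on the libraries numbered 1 alone, the rule gave 193 windows, and in the libraries numbered 2, which the ratio did not use, 61.1% of their 1961 counted peaks were under 0.67, against 22.2% of all counted peaks there. Of these windows, 113 reached 60% again. In the reverse direction there were 222 windows, with 58.6% of 2283 counted peaks under 0.67 in the libraries numbered 1, against 21.3% of all, and 113 windows again reached 60%. The 113 are the windows that both choices share, and 142 of the 193 and 153 of the 222 are among the 203. In the windows chosen on the libraries numbered 1, 1366 counted peaks were under 0.67 in these libraries. Of them, 1068 (78.2%) were under 0.67 again in those numbered 2. Among all 32251 counted peaks under 0.67 in the libraries numbered 1, the share was 67.6%. In the reverse direction it was 1180 of 1554 (75.9%), against 64.9% of all 33619 counted peaks under 0.67 in the libraries numbered 2. The minimum of 20 counts used both control libraries in either choice. No label says that the replicates were separate cultures, so these shares describe agreement between libraries and are no independent support.

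The 270 peaks with under 20 control counts took no part in the choice of a window. Of these, 82 (30.4%) were under 0.67, against 11.5% of all such peaks, and their median ratio was 1.17. The median over all such peaks was 1.64. A low control count defines these peaks and by itself favours high ratios, so the medians are not read as gains.

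Beside the chosen windows the share of lower peaks was much nearer that of the whole genome. In the windows 100 kb away on either side, 29.0% of 2810 counted peaks were under 0.67, with a median ratio of 0.872. At 200 kb the share was 27.1%, and at 300, 400 and 500 kb it was 23.7%, 23.35% and 23.04%, against 20.6% over all counted peaks. Inside a window, the lower peaks spread over a median of 62.4 kb, and over 50 kb or more in 146 of the 203 windows. Adjacent windows were chosen together in 6 runs with 13 windows.

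**Figure D2:**
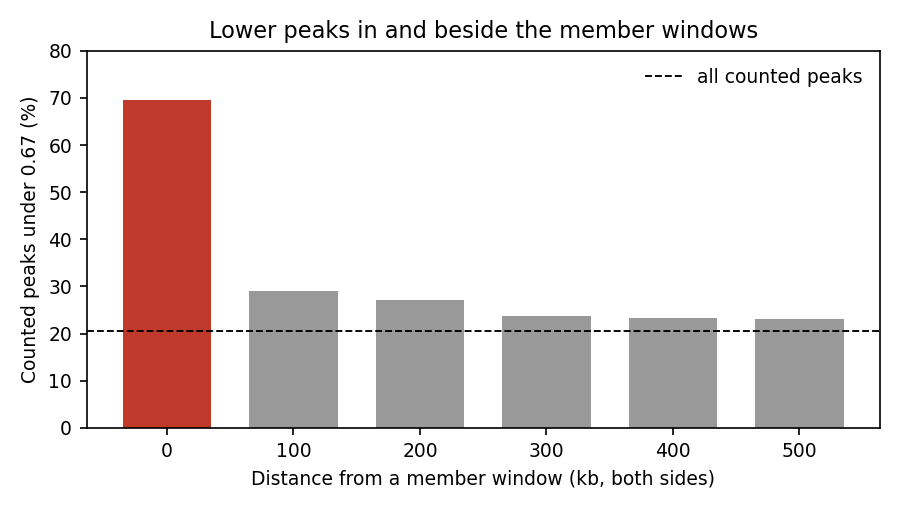
Percentage of counted peaks with a ratio under 0.67 in the chosen windows (distance 0) and in windows 100 to 500 kb away on both sides, chosen windows left out; the dashed line is the value over all counted peaks. The share was 69.5% in the windows, where the rule sets it, and 29.0% one window away.

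The chosen windows were poor in genes, a property that the rule did not use directly. No protein-coding gene overlapped 70 of them (34.5%), against 14.2% of the other 7704 windows with 8 or more counted peaks. No gene began or ended in 117 (57.6%), against 26.2% of the others, and more than 1 gene overlapped 43 (21.2%), against 48.8%. Gene-end peaks, those no more than 1 kb from where a protein-coding gene starts or stops, made up 96 of the 2042 counted peaks (4.70%), against 16.2% in the other windows, and the median distance of a counted peak to a gene end was 57.8 kb, against 15.7 kb. The counted peaks had a median length of 335 bp, against 363 bp, and a median spacing of 4.77 kb, against 3.97 kb. In the other windows only 4.585% of gene-end peaks were under 0.67, against 19.9% of peaks inside genes and 20.5% between genes.

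**Figure D3:**
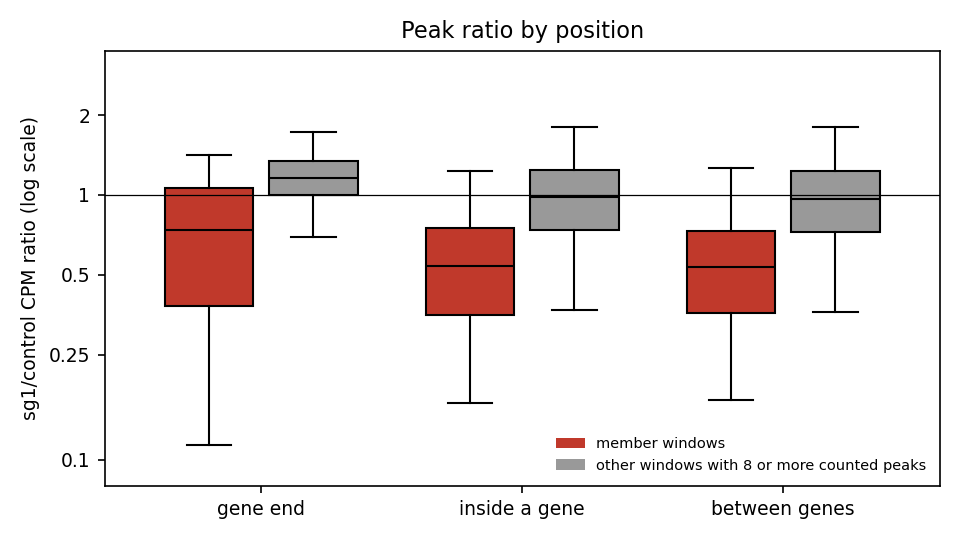
Ratio of mean sg1 to mean control CPM (log scale) of counted peaks by position, in the chosen windows (red) and in the other windows with 8 or more counted peaks (grey); boxes show the quartiles and the median, whiskers the 5th to 95th percentile. Gene-end peaks have the highest median in both sets, 0.737 in the chosen windows and 1.16 in the others.

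Pooled over the chosen windows, gene-end peaks had a higher median ratio than the other counted peaks. The medians were not compared within single windows. Gene-end peaks had a median ratio of 0.737, peaks inside genes 0.538 and peaks between genes 0.535. Of the 96 gene-end peaks 47 were under 0.67, and 30 were above 1. The 250 bases before a gene's start were covered by 50 peaks at 43 genes, of which 14 were under 0.67 (28.0%) and 23 above 1. In the other windows with 8 or more counted peaks, 140 of 7307 such peaks (1.92%) were under 0.67 and 5938 above 1. The tallest control peak of a window was under 0.67 in 128 windows and above 1 in 29, and where it was a gene-end peak, in 20 windows, it was above 1 in 14. Across peak levels, the share under 0.67 lay between 65.2% at 20 CPM or more in the control and 71.5% from 2 to 5 CPM. The rule fixes a high share over the windows, so a high share at each level is largely set by the choice. In the other windows with 8 or more counted peaks, the share was 22.1% under 2 CPM and 9.61% at 20 CPM or more.

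The chosen windows were spread over 21 chromosomes. Their share of the windows with 8 or more counted peaks was highest on chromosome 14 (16 of 266, 6.015%), chromosome 18 (6 of 122) and chromosome 2 (28 of 619). It was low on the gene-rich chromosomes 17 (2 of 390) and 19 (1 of 271), and there was none among 145 on chromosome 22. The median ratio of all counted peaks also differed by chromosome, with 0.943 on chromosome 14, 0.899 on chromosome 2, 1.11 on chromosome 17 and 1.12 on chromosome 19, and its part in the number of chosen windows was not tested. DNA copy number was not measured.

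Of the 7 windows with every counted peak under 0.67, 3 overlap no protein-coding gene. All 11 peaks of the window on chromosome 12 from 127200000 to 127299999, which overlaps no protein-coding gene, were under 0.5, and edgeR called all 11 lower. Its counted peaks summed to 24.7 and 20.9 CPM in the sg1 libraries, against 99.95 and 96.8 CPM in the control libraries, a ratio of 0.232. The tallest peak, at 127272757 to 127273493, had 6.72 and 5.26 CPM in sg1, against 29.4 and 33.0 CPM in the control. The smallest peaks behaved like the tallest, with ratios between 0.0714 and 0.450 over the window.

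Another window without a gene, on chromosome 6 from 91100000, had all 10 peaks under 0.67 at much lower levels. Its tallest peak, at 91166293 to 91166681, had 38 and 36 counts in sg1 (0.889 and 0.942 CPM), against 91 and 57 counts in the control (4.43 and 3.745 CPM). The windows on chromosome 19 from 23500000, on chromosome 13 from 39800000, on chromosome 14 from 83100000 and on chromosome 8 from 133900000 also overlap no gene, with 8 of 8, 7 of 8, 7 of 8 and 8 of 9 counted peaks under 0.67. On chromosome 13, 1 peak at 39889337 to 39889738 went the other way with 1.78 and 2.22 CPM in sg1, against 0.779 and 1.25 CPM in the control. It was the only counted peak above 1 in these 6 gene-free windows.

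The windows in NTRK3, NTM and RBFOX1 held no gene-end peak. NTRK3, which encodes the receptor of neurotrophin-3, spans a run of 2 windows on chromosome 15 from 87900000, with 7 of 8 and 9 of 9 counted peaks under 0.67. The peak at 88032720 to 88033197 had 3.72 CPM in both sg1 libraries, against 10.5 and 10.6 CPM in the control. NTM, which encodes the adhesion molecule neurotrimin, had 8 of 8 on chromosome 11, where the peak at 131748736 to 131749503 had 8.14 and 7.90 CPM in sg1, against 24.15 and 21.7 CPM in the control. RBFOX1, a neuronal splicing regulator gene, had 8 of 9 on chromosome 16 at low levels, with 2.01 and 1.596 CPM in sg1 at its tallest peak, against 3.85 and 4.80 CPM in the control. The groups did not overlap at any of these peaks.

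The window on chromosome 16 that reaches the phosphatase gene CPPED1 had 8 of 8 counted peaks under 0.67, with ratios from 0.0946 to 0.618. The lowest ratios, 0.0946 and 0.118, were those of its peaks inside CPPED1, and the other counted peaks lay between genes. The SPATA31D4, SPATA31D3 and SPATA31D1 window on chromosome 9 had 9 of 9, with ratios from 0.114 to 0.402. These SPATA31D genes are close copies of each other, so reads may have been placed on any copy and the position of the loss among them is uncertain. KCNN3, a calcium-activated potassium channel gene on chromosome 1, spans 2 adjacent windows with 6 of 10 and 6 of 9. The tallest peak of the first window had a ratio of 1.19, and its highest ratio was 1.54. In the second, the peak inside the gene at 154866489 to 154867088 had 3.18 and 2.85 CPM in sg1, against 14.8 and 10.97 CPM in the control. The gene-end peak at 154870037 to 154870569 had 8.07 and 7.38 CPM in sg1, against 5.01 and 5.78 CPM.

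**Figure D4:**
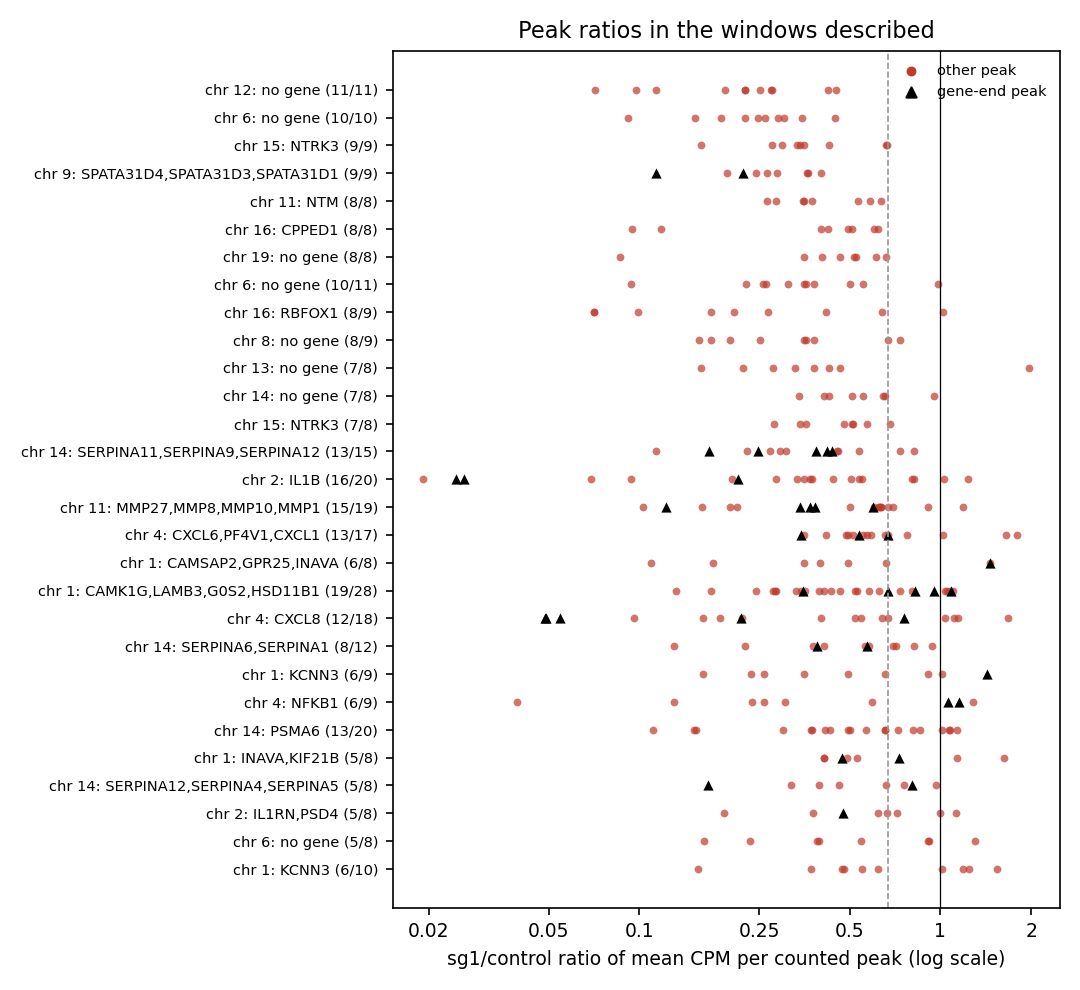
Ratio of mean sg1 to mean control CPM (log scale) of each counted peak in part of the windows named in the text. These are the windows with the highest shares, with the most counted peaks, in adjacent runs, or with an inflammatory or NF-kB target gene looked for. Each has 1 row with its chromosome, protein-coding genes and the number of peaks under 0.67 (dashed line) of those counted. Triangles are gene-end peaks. In the first 7 rows every peak is under 0.67, and further down gene-end peaks of G0S2, KCNN3, INAVA and NFKB1 lie near or above 1.

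Of 57 inflammatory and NF-kB target genes looked for, 51 overlap a window with 8 or more counted peaks, and 8 of these overlap a chosen one: IL1B, IL1RN, CXCL8, CXCL1, CXCL6, MMP1, MMP10 and NFKB1. Such genes overlap 6 of the 203 chosen windows (2.96%), against 0.545% of the others. The list was written with earlier results of these data known, so this share is no independent support. TNFAIP3, the gene of the NF-kB restraining enzyme A20, was just outside with 15 of 26 counted peaks (57.7%), BIRC3, an apoptosis inhibitor gene, had 12 of 21 (57.1%), and TNIP1, an A20 partner gene, had 9 of 27 (33.3%).

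IL1B encodes interleukin-1 beta, a cytokine that starts inflammation, and its window on chromosome 2 from 112800000 had 16 of 20 counted peaks under 0.67. The counted peaks summed to 79.2 and 73.5 CPM in sg1, against 235.5 and 233.4 CPM in the control. The peak over the promoter printed above, at 112836466 to 112837227, had 2.81 and 4.08 CPM in sg1, against 17.4 and 14.9 CPM in the control. At the other end of the gene the contrast was wider: the peak at 112828911 to 112829854 had 0.421 and 0.419 CPM, against 14.95 and 17.1 CPM. The lowest ratio of all counted peaks in the chosen windows, 0.0191, was at 112832000 to 112832246 inside IL1B, with 2 and 4 counts in sg1, against 87 and 56 in the control. Beyond the gene, a group of 4 peaks from 112877001 to 112881680 had ratios between 0.203 and 0.373, and between them and the gene 2 peaks from 112869164 to 112869940 had ratios of 1.03 and 1.24. The window was thus not uniform: sites with ratios above 1 lay between the lower groups.

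CXCL8 and CXCL1 encode chemokines that attract neutrophils, and their 2 windows lie side by side on chromosome 4 from 73700000. In the CXCL8 window 12 of 18 counted peaks were under 0.67. Its tallest peak, at 73704335 to 73705448 between genes, had a ratio of 0.6708, and the highest ratio was 1.67. The CXCL8 promoter peak at 73740320 to 73740865 had 15.3 and 14.9 CPM in sg1, against 19.4 and 20.4 CPM in the control, a ratio of 0.759. The 3 peaks past the other end of the gene, from 73743863 to 73745273, had ratios of 0.0545, 0.0491 and 0.0487, the last with 0.515 and 0.628 CPM in sg1, against 10.7 and 12.8 CPM in the control. Start and end of CXCL8 therefore differed widely in one window.

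In the CXCL1 window 13 of 17 counted peaks were under 0.67. The CXCL1 promoter peak at 73868768 to 73869984 had 11.0 and 12.1 CPM in sg1, against 21.4 and 21.7 CPM in the control, and was the tallest of the window. The lowest ratio in the window was 0.345 and the highest 1.80, and edgeR called 8 peaks lower and 3 higher, against 14 lower and 0 higher in the CXCL8 window. The peak at 73832548 to 73833122 between genes had 2.29 and 2.38 CPM in sg1, against 1.41 and 1.18 CPM in the control.

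**Figure D5:**
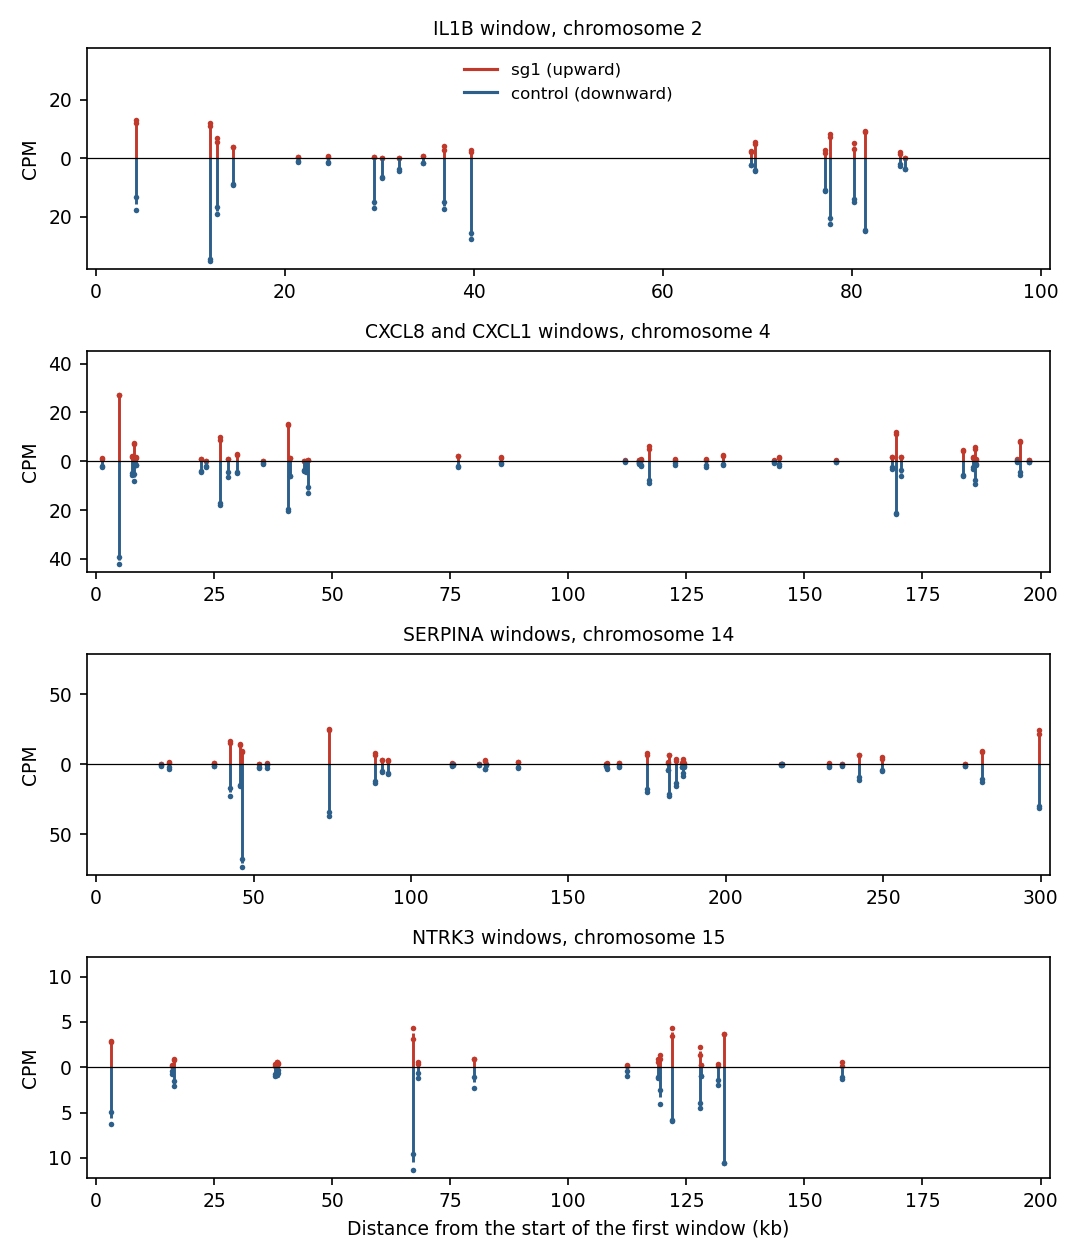
CPM of every peak in 4 groups of chosen windows, by distance from the start of the first window (kb); lines are means and dots the 2 libraries of each group, with sg1 (red) drawn upward and the control (blue) downward on the same scale. The tallest SERPINA peak has 9.55 and 8.74 CPM in sg1, against 72.9 and 67.2 CPM in the control, and peaks of near-equal height stand beside lower ones in the IL1B, CXCL and SERPINA panels.

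NFKB1 encodes the p105 precursor of the NF-kB subunit p50, and its window on chromosome 4 from 102500000 shows a gene start that did not follow the rest. The promoter peak at 102500840 to 102502521 had 34.1 and 35.4 CPM in sg1, against 31.7 and 33.8 CPM in the control. Inside the gene, 6 of 7 counted peaks were under 0.67, among them one at 102524819 to 102525452 with 0.234 and 0.105 CPM in sg1, against 4.87 and 3.745 CPM in the control. The summed CPM of the window was therefore 0.844 times the control although 6 of its 9 counted peaks were under 0.67. The gene runs on into the next window, which was not chosen, with 4 of 10.

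The matrix metalloproteinase genes MMP27, MMP8, MMP10 and MMP1, which encode secreted enzymes that cut collagen and other matrix proteins, share a window on chromosome 11 from 102700000 with 15 of 19 counted peaks under 0.67. The MMP10 promoter peak at 102780458 to 102780933 had 2.93 and 3.19 CPM in sg1, against 5.21 and 5.06 CPM in the control. The tallest MMP8 gene-end peak, at 102725127 to 102725531, had 2.71 and 2.09 CPM, against 6.33 and 6.18 CPM. The lowest ratio was 0.103, at 102758149 to 102758537 between genes, with 0.819 and 0.654 CPM in sg1, against 7.50 and 6.83 CPM in the control. The tallest peak of the window, at 102746803 to 102747538 between genes, had a ratio of 0.6701, and the highest ratio was 1.19. IL1RN, which encodes the interleukin-1 receptor antagonist, lies in a window with 5 of 8, where the tallest peak, inside PSD4, had 14.2 and 17.8 CPM in sg1, against 14.3 and 14.2 CPM. IL1RN also overlaps the neighbouring window, which was not chosen, with 3 of 9. No counted peak covered the 250 bases before an IL1RN start.

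The longest run of adjacent windows covered the SERPINA cluster on chromosome 14 from 94300000 to 94599999, with 8 of 12, 13 of 15 and 5 of 8 counted peaks under 0.67. SERPINA genes encode secreted protease inhibitors and relatives, among them SERPINA1 (alpha-1 antitrypsin) and SERPINA6 (corticosteroid-binding globulin). The largest single loss in CPM of the run was between SERPINA6 and SERPINA1, at 94345942 to 94346840, with 9.55 and 8.74 CPM in sg1, against 72.9 and 67.2 CPM in the control. The peak next to it, at 94345360 to 94345918, had 14.1 and 13.9 CPM in sg1, against 15.4 and 14.6 CPM. Neighbouring sites in the run thus differed widely.

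The SERPINA6 promoter peak at 94322824 to 94323457 had 1.29 and 0.994 CPM in sg1, against 2.19 and 3.68 CPM in the control. The SERPINA1 gene-end peak at 94390446 to 94391056 had 2.85 and 3.27 CPM, against 5.70 and 5.06 CPM. In the middle window, which holds SERPINA11 and SERPINA9 and reaches SERPINA12, both groups were apart at all 15 counted peaks, and the sums were 28.8 and 30.7 CPM in sg1, against 80.04 and 87.45 CPM in the control. The SERPINA5 promoter peak at the far end of the run, at 94581051 to 94581772, had a ratio of 0.804.

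The window with the most counted peaks, 28, holds CAMK1G, LAMB3, G0S2 and HSD11B1 on chromosome 1 from 209600000, and 19 of them were under 0.67. LAMB3 encodes a laminin chain of the epithelial basement membrane and G0S2 an inhibitor of fat breakdown. The peak inside CAMK1G at 209607272 to 209607972 had 3.745 and 2.85 CPM in sg1, against 24.7 and 25.1 CPM in the control. The G0S2 gene-end peak at 209675015 to 209676244 had 29.8 and 30.4 CPM, against 29.5 and 33.6 CPM, and the LAMB3 gene-end peak outside the gene at 209652963 to 209653436 had 13.95 and 12.9 CPM, against 11.3 and 13.4 CPM. The other gene-end peaks were lower in sg1, with ratios of 0.3505 at CAMK1G (209612767 to 209613520) and of 0.6675 and 0.825 at LAMB3. Between the LAMB3 and G0S2 gene ends lay 8 counted peaks, from 209655973 to 209673613, and at all 8 both sg1 libraries were under both control libraries.

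On chromosome 14 from 35300000, a window next to the one that holds NFKBIA, the gene of an NF-kB inhibitor, had 13 of 20 counted peaks under 0.67 and overlaps PSMA6, a proteasome subunit gene. Its tallest peak, at 35365125 to 35366753, had 28.6 and 30.2 CPM in sg1, against 46.8 and 42.6 CPM in the control. NFKBIA itself lies in the next window, where 5 of 12 were under 0.67. On chromosome 6, 2 adjacent gene-free windows from 137600000 had 5 of 8 and 10 of 11, and the window after them holds TNFAIP3. The tallest peak of the second, at 137728698 to 137729475, had 6.085 and 4.66 CPM in sg1, against 19.6 and 22.1 CPM in the control.

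On chromosome 1 from 200800000, INAVA, a gene of innate immune signalling, spans the border of 2 adjacent windows with 6 of 8 and 5 of 8. A peak before its start, at 200887890 to 200888806, had 6.27 and 5.63 CPM in sg1, against 34.3 and 33.4 CPM in the control, while the gene-end peak at 200890878 to 200891811 had 13.3 and 12.5 CPM, against 9.25 and 8.41 CPM. Ratios under and above 1 thus lay side by side at the INAVA start. SIGLEC15, a sialic acid receptor gene on chromosome 18, had the lowest ratio of all promoter peaks in the windows, 0.157, with 0.819 and 0.707 CPM at 45825303 to 45825799 in sg1, against 4.48 and 5.26 CPM in the control.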

How the data were processed

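ATAC-seq libraries of LM2 cells, 2 with CECR2 sg1 and 2 with a non-targeting guide, were compared over peaks called by the authors. The deposited values are whole-number counts of cut sites per merged peak, made by the authors with featureCounts 1.6.0 per the file headers; Trimmomatic 0.39, Bowtie2 and MACS2 2.2.4 are named in the submitters' processing notes. No source used here gives the build, positions are as deposited, and gene positions are from RefSeq (GRCh38.p14); DNA sequence was read for promoters only. Totals were 58341297 and 52150389 in sg1, against 25610655 and 18950793 in the control. Of these, 109 peaks in the first 250 kb of chromosome 1 held 25.4% and 25.4% in sg1, against 18.0% and 17.9% in the control, and were left out of totals and tests. CPM was taken over the kept peaks of chromosomes 1 to 22, and fixed windows of 100 kb were chosen as the report states.

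Calls came from edgeR 4.0.16 (filterByExpr, TMM, quasi-likelihood test, group as the only term, Benjamini-Hochberg FDR of 0.05) over 184717 peaks, chromosomes X and Y included, and DESeq2 1.42.0 was the alternative. The fit was tested on simulated data. Other alternatives changed scaling, filters, thresholds, the grid and the libraries used. Described windows were the 12 with the highest share, the 3 with the most counted peaks and all in adjacent runs. Of the 12, 10 lay above 87.5%, and 2 were from 11 tied at 87.5%. The tie was taken with chromosome names sorted as text, which puts 13 and 14 before 2. Only part of their tallest, lowest-ratio and highest-ratio peaks is given. The MMP, NFKB1 and IL1RN windows were added for list genes, and the SIGLEC15 window and other peaks and promoters after their values were seen. Windows, lists and motifs were chosen with earlier results of these data known. Counting error alone limits small peaks: at 20 control counts a ratio is imprecise.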

Additional observations from a re-analysis of the deposited data

How the results depend on the processing

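The number of chosen windows depended on the thresholds and on the totals. It was 203 as described, 245 with TMM scaling, 208 at a control minimum of 10 counts and 207 with the grid moved by 50 kb. It was 391 with the start of chromosome 1 kept, 94 at a minimum of 40 counts, 35 at a ratio under 0.5, 59 at a share of 75% and 38 at 12 or more counted peaks. Leaving out 1 library gave 199 to 223 windows, of which 147 (without control replicate 1) to 176 (without sg1 replicate 1) were among the 203. The minimum of 10 counts shared 151 windows with the 203, and that of 40 shared 65. Of the chosen peaks, edgeR called between 870 and 1136 lower when 1 library was left out, which leaves a group with 1 library assumed to vary like the other group. The higher calls, 53 as described, ranged from 22 to 59, with 22 and 24 without sg1 replicate 1 and sg1 replicate 2, and DESeq2 gave 16. With the replicate block there were 1213 lower and 52 higher calls. The deviations of same-numbered libraries had a correlation of 0.000132 over 184717 peaks, so the numbers give no pairing. The cause of these changes was not tested. Groups of 2 libraries limit every comparison.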
